A study of Mus musculus with 6 samples.

Results

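The Myc, Max and Mxd network was followed through 10 genes in mammary tumour cells taken out of mouse lungs: Myc, Mycn, Max, Mxd1, Mxi1, Mxd3, Mxd4, Mnt, Mlx and Mga. They were listed by gene symbol with earlier results of these data known. Every probe set that the platform annotation ties to exactly 1 of these symbols was kept. This gave 26 of 45037 non-control probe sets, standing for 10 of 18193 genes. The brightest probe set of each gene, by its mean on all 6 arrays, leads, and the other probe sets are given beside it.

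MVT1 is a mouse mammary tumour cell line, here tagged with green fluorescent protein, and 3000000 cells were put into the bloodstream of each FVB/N mouse. The 6 arrays make 3 groups of 2: tumour cells sorted at 2 weeks from mice given the CSF1 receptor inhibitor GW2580 by gavage (160 mg per kg each day), at 2 weeks from vehicle-treated mice, and at 1 week from vehicle-treated mice. Gavage began 1 week after injection. The 2-week vehicle mice thus had more days of gavage than the 1-week mice, and time and gavage cannot be told apart between these groups. Each vehicle group came from 2 mice. For GW2580 the labels state no number of mice per array, and the spread between those arrays may be technical. Arrays are called by group and replicate number, as in 1-week array 1. All groups share the cell line, the host strain and the lung. As background, MVT1 derives from a tumour of a mouse carrying Myc and Vegf transgenes under the mouse mammary tumour virus promoter, a hormone-responsive promoter. No source used here tells whether the Myc probe set reads the transgene, the cells' own Myc gene or both.

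Myc and Mycn are transcription factors that drive cell growth and division, and they bind DNA only as a pair with Max. The Mxd proteins (Mxd1, Mxi1, Mxd3 and Mxd4) and Mnt compete for Max, bind the same DNA element, and recruit Sin3 corepressor complexes, so that they oppose Myc at shared genes. Mlx is a Max-like partner for the glucose-sensing Mondo factors and for some Mxd proteins, and Mga, a very large protein with a second DNA-binding domain, pairs with Max in a Polycomb-type repressor complex. Myc overproduction is a common driver of mammary tumours.

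The element that these pairs share is the E-box CACGTG, which reads the same on both strands. RefSeq promoter windows (GRCm38.p6) were at hand for 9 of the 10 genes. Each runs from 250 bases before to 50 after a start of the gene, which need not be its outermost one. Of these 9 genes, 4 held the E-box, against 7.15% of all 32851 windows and 8.09% of 27025 genes. The matches are shown with 20 bases on each side, 5′ to 3′ on the gene's own strand and with the E-box in capitals, because they are the letters that the network's own proteins read. A match describes the sequence and is not a measured binding site. The first base of the E-box lay 219 bases before the window's start for Mxd4 (chr5:34187904-34187949, minus strand) and 123 before it for Mnt (chr11:74830781-74830826, plus strand). It lay 40 before it for Mlx (chr11:101087230-101087275, plus strand) and 3 before it for Max (chr12:76962226-76962271, minus strand). The RefSeq gene span begins at base 74830806 for Mnt, at 101086707 for Mlx and, on the minus strand, at 76962323 for Max. The Mlx and Max matches thus lie inside the gene span.
Mxd4: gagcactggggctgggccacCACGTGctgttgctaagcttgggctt
Mnt: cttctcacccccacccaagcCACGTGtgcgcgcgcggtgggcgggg
Mlx: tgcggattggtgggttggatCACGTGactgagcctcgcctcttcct
Max: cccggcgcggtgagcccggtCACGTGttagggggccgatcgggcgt

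The whole Mxd4 window (chr5:34187661-34187960, minus strand, GRCm38.p6) is printed because Mxd4 is the antagonist that passed the test between 1 and 2 weeks, with the E-box again in capitals.
Mxd4 promoter: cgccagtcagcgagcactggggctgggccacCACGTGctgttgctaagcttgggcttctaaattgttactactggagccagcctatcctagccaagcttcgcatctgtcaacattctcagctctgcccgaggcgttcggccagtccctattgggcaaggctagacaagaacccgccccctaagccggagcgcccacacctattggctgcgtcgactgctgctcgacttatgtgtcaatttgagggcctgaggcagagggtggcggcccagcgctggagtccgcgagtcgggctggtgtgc

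Values are RMA log2 expression values, in which a difference of 1 is 2-fold, and a level of one probe set cannot be set against that of another. All 10 leading probe sets had a mean above 4.97, the floor used for testing (the 40th percentile of probe set means), as did 21 of the 26 probe sets. Sorted tumour cells were checked against marker lists. The keratin genes Krt8 and Krt18, which mark simple epithelium, read between 13.52 and 13.82 and between 12.93 and 13.44 on the 6 arrays. All 6 tested genes of the tumour epithelium list were lower in vehicle at 2 weeks than at 1 week (median -0.29, none called). With GW2580 against vehicle at 2 weeks 3 were above 0 and 3 below. The log2 of the summed tumour epithelium markers (8 genes, 2 of them below the floor) was 14.34 and 14.33 with GW2580, 14.31 and 14.39 with vehicle at 2 weeks, and 14.68 and 14.60 at 1 week. The macrophage sum (13 genes, 1 below the floor) was 11.69 and 12.33, then 12.06 and 12.25, then 11.77 and 11.93 in the same order of groups. The fibroblast and smooth muscle sum (10 genes, 1 below the floor) was 11.99 and 10.50 with GW2580, 10.80 and 10.90 with vehicle at 2 weeks, and 12.74 and 11.55 at 1 week, with its highest value on 1-week array 1. The neutrophil sum (6 genes, 1 below the floor) was 8.41 and 10.12, then 10.01 and 10.69, then 8.83 and 9.30, and the lung epithelium sum (8 genes, none below the floor) was 11.49 and 9.62, then 10.99 and 10.67, then 11.84 and 11.02. Its genes did not move together: in vehicle 6 of 8 were above 0 at 2 weeks (median 0.40, Sftpd called higher) while Scgb1a1, a club cell gene, differed by -3.16, and with GW2580 against vehicle at 2 weeks 5 of 8 were below 0 (median -0.58, Sftpd and Sftpa1 called lower). Sftpd was thus called in the direction in which Myc and Mxd4 differed in both comparisons, and its part in those differences was not tested. In the same order of groups, the endothelium sum (9 genes, 4 below the floor) was 9.947 and 9.711, then 9.335 and 8.859, then 9.762 and 9.513. The lymphocyte sum (8 genes, 1 below) was 8.895 and 8.784, then 8.733 and 8.684, then 8.888 and 8.923. Both were lowest on the 2-week vehicle arrays, where Myc and Mxd4 were highest, and their part was not tested. The erythroid and platelet sum (4 genes, 1 below) was 8.121 and 8.393, then 8.064 and 8.063, then 7.839 and 7.975. On 2-week vehicle array 2 the 3′ control probe set of beta-actin lay 1.20 above the 5′ one, a gap of 0.38 to 0.50 on the other arrays. For the Gapdh control probe sets the same gap was 0.92 on that array and ran from -0.13 to -0.10 on the other arrays. In sorted bulk samples, fewer cells of a type and less RNA per cell cannot be told apart.

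In vehicle-treated mice, 2 of the 10 genes rose between 1 and 2 weeks, and no member fell. These were Myc itself, 1.97-fold higher at 2 weeks, and Mxd4, one of its antagonists, 2.06-fold higher. Over all 13090 genes tested with limma, 6.45% were called in this comparison in either direction, with 3.74% higher and 2.71% lower at 2 weeks. At an unadjusted p under 0.05 there were 4 of 10 members, all higher (Myc, Mxd4, Mxi1 and Mnt), against 23.6% of all genes in either direction and 14.1% that were higher. The 2-week and 1-week vehicle arrays did not overlap for 6 members, against 56.7% of all genes, so that count is near the background.

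Myc, the growth-driving factor of the network, read 13.16 and 13.36 on the 2-week vehicle arrays, against 12.00 and 12.56 on the 1-week arrays. The groups did not overlap, and the lower 1-week value belonged to array 1. The difference was 0.98 (SE 0.21, 95% interval 0.49 to 1.47, limma adjusted p 0.0383). With GW2580 Myc read 12.46 and 12.83, below both 2-week vehicle arrays and overlapping the 1-week arrays. The order of group means was therefore 12.64 ± 0.26 with GW2580, between 13.26 ± 0.14 with vehicle at 2 weeks and 12.28 ± 0.40 at 1 week (SD, n = 2 each).

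The Myc call was lost without any of 3 of the 4 vehicle arrays, and it depended on which features were tested. When all 45037 probe sets were tested, the same difference had an adjusted p of 0.0600 in limma. Without 1-week array 1, the array with the highest fibroblast sum, it was 0.70 (limma adjusted p 0.264), and none of the 13090 genes passed in that fit, with 1630 at an unadjusted p under 0.05. Without 2-week vehicle array 2, the array with the uneven beta-actin signal, it was 0.88 (limma adjusted p 0.145), and without 2-week vehicle array 1 it was 1.08 (limma adjusted p 0.118). Leaving out 1-week array 2 kept the call, at 1.26 (limma adjusted p 0.0384). As the vehicle groups did not overlap, leaving out 1 array could not reverse the sign, so the kept sign adds no evidence. The part of other cells in the difference was not tested.

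Mycn, a second Myc factor known mainly from embryonic and neural tissue, did not share the rise. Its leading probe set read 12.35 and 12.68 with GW2580, 12.68 and 12.77 with vehicle at 2 weeks, and 12.94 and 12.72 at 1 week. The groups at 2 weeks overlapped, and so did the vehicle groups. The vehicle difference was -0.11 (95% interval -0.47 to 0.25). Both GW2580 arrays lay below both 1-week arrays, with a difference of -0.32 (95% interval -0.67 to 0.04) that did not pass (limma adjusted p 0.344). Its other probe sets lay below the floor, at 4.56 to 5.23 and at 3.52 to 3.69 over the 6 arrays, so the 3 probe sets of Mycn disagree on whether its RNA was present, and the cause of that was not tested.

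Max, the shared partner, varied little. It read 8.61 and 8.91 with GW2580, 8.67 and 8.47 with vehicle at 2 weeks, and 8.75 and 8.55 at 1 week, with all 3 groups overlapping. The differences were 0.19 (95% interval -0.17 to 0.55) for GW2580 against vehicle at 2 weeks and -0.08 (95% interval -0.44 to 0.28) for 2 weeks against 1 week in vehicle. A change of 2-fold in either direction lies outside both intervals. Both intervals rest on 1 probe set and use the spread between the GW2580 arrays, which may be technical.

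**Figure D1:**
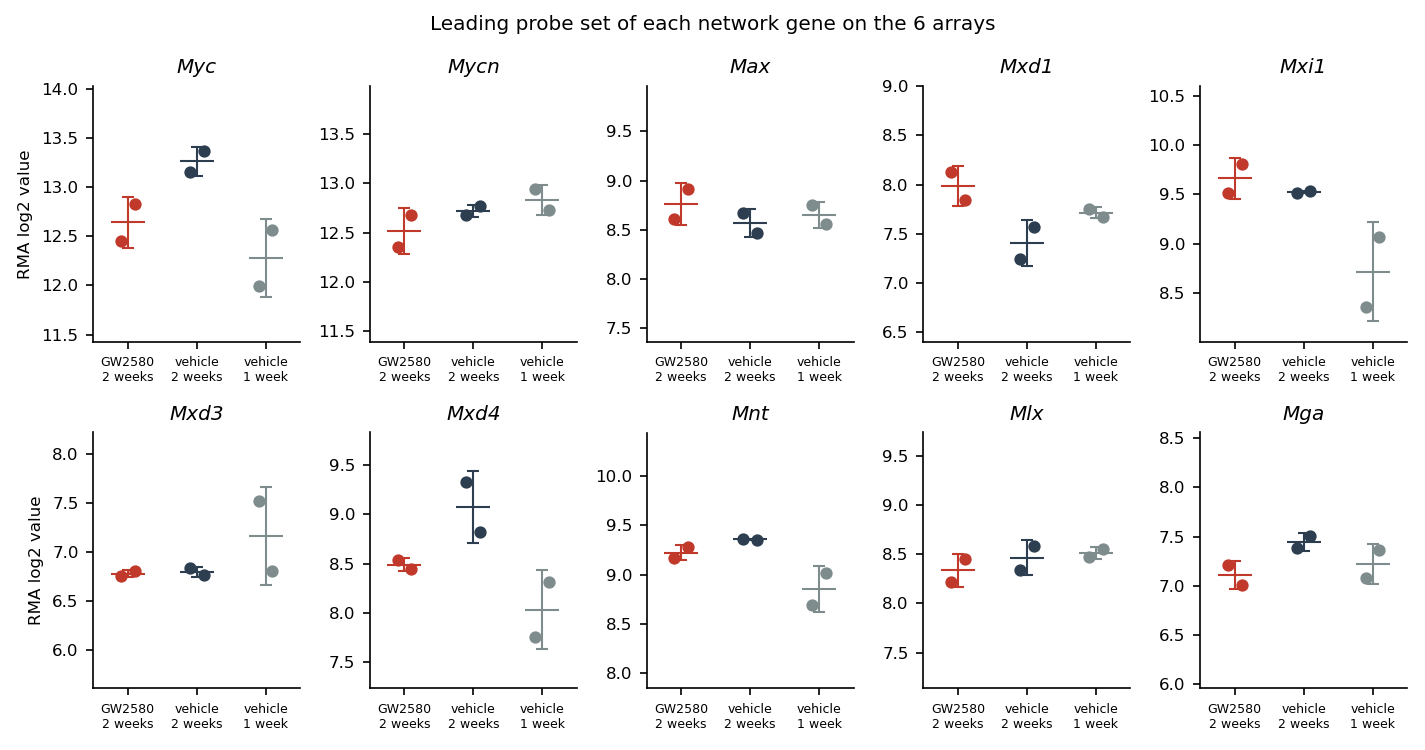
RMA log2 value (y axis, the same span in every panel) of the leading probe set of each network gene; points are the 6 arrays, bars the group mean ± SD (n = 2), with GW2580 at 2 weeks, vehicle at 2 weeks and vehicle at 1 week from left to right. Myc and Mxd4 are highest on the 2-week vehicle arrays, Mxi1 is lowest on the 1-week arrays, and Max and Mlx move little.

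Mxd4, a Max-binding repressor of Myc target genes, had the largest vehicle difference of the 10 members. It read 9.33 and 8.82 on the 2-week vehicle arrays, against 7.75 and 8.31 on the 1-week arrays, and the groups did not overlap. The difference was 1.04 (SE 0.23, 95% interval 0.52 to 1.56, limma adjusted p 0.0385). With GW2580 it read 8.54 and 8.44, below both 2-week vehicle arrays and above both 1-week arrays. Like Myc, Mxd4 did not pass when all 45037 probe sets were tested (limma adjusted p 0.0605), nor without 1-week array 1 (0.76, limma adjusted p 0.272). Leaving out 2-week vehicle array 1 or 2 also ended the call (0.79 and 1.30, limma adjusted p 0.172 and 0.0572).

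The 4 probe sets of Mxd4 fell into 2 kinds. The second brightest followed the leading one, at 9.02 and 8.41 on the 2-week vehicle arrays against 7.50 and 8.09 at 1 week, a difference of 0.91 (SE 0.25). The remaining pair differed by -0.0028 and 0.10, and the mean over all probe sets of Mxd4 differed by 0.51, which did not pass (limma adjusted p 0.12). The rise in Mxd4 was thus read by 2 of its 4 probe sets.

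Mxi1, a member of the Mxd family, read 9.52 and 9.54 on the 2-week vehicle arrays, against 8.36 and 9.07 on the 1-week arrays. The groups did not overlap, and the difference of 0.81 (SE 0.22, 95% interval 0.29 to 1.33) did not pass over all genes (limma adjusted p 0.0726). With GW2580 it read 9.52 and 9.81, also above both 1-week arrays, a difference from 1 week of 0.95 (SE 0.22, limma adjusted p 0.0983), the largest of the members in that comparison. Its second probe set differed by 0.46 between the vehicle groups and by 0.91 between GW2580 and 1 week, in the same direction. Leaving out 1-week array 2 gave 1.17 for the vehicle groups, past the threshold (limma adjusted p 0.0339), and leaving out replicate 1 gave 0.46 (limma adjusted p 0.372).

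Mnt, the most widely made antagonist of Myc, read 9.36 and 9.35 with vehicle at 2 weeks, against 8.69 and 9.01 at 1 week. The 2-week vehicle arrays lay above both 1-week arrays, with a difference of 0.51 (SE 0.15, 95% interval 0.17 to 0.84) that did not pass over all genes (limma adjusted p 0.0790). With GW2580 it read 9.17 and 9.28, below both 2-week vehicle arrays and above both 1-week arrays. Its other probe set, near the floor, differed by -0.03 between the vehicle groups.

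Mxd1, the founding Mxd protein and known from cells that leave the cycle and differentiate, ran the other way. It read 8.13 and 7.84 with GW2580, 7.25 and 7.57 with vehicle at 2 weeks, and 7.76 and 7.67 at 1 week. Both GW2580 arrays lay above every vehicle array, and both 2-week vehicle arrays lay below both 1-week arrays. The difference between GW2580 and vehicle at 2 weeks was 0.58 (SE 0.16, 95% interval 0.21 to 0.95), the smallest p of the members in that comparison, and it did not pass over all genes (limma adjusted p 0.132). The other probe sets differed by 0.29 and 0.36 in the same direction, with overlapping groups, and the difference on the second of these was 0.015 without 2-week vehicle array 2. The first was -0.0087 without GW2580 array 2. Between the vehicle groups the leading probe set differed by -0.31 (SE 0.16), and the others by 0.03 and -0.05.

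Mxd3, which is known to be made in the S phase of dividing cells, read 6.76 and 6.81 with GW2580, 6.83 and 6.76 with vehicle at 2 weeks, and 7.52 and 6.81 at 1 week. One array, 1-week array 1, stood above the other 5. The difference between the vehicle groups was -0.37 (SE 0.21, 95% interval -0.86 to 0.13), and it was -0.013 without that array. The other probe sets differed by -0.56 and -0.54, so all 3 were lower at 2 weeks, and none passed (limma adjusted p 0.299 and 0.227 over all probe sets). Without the same array these were -0.16 and -0.39. Between GW2580 and vehicle at 2 weeks Mxd3 differed by -0.02 (95% interval -0.51 to 0.47).

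Mlx, the Max-like partner of the Mondo factors, had probe sets that did not move together. The leading one read 8.22 and 8.45 with GW2580, 8.34 and 8.59 with vehicle at 2 weeks, and 8.47 and 8.55 at 1 week, a vehicle difference of -0.04 (95% interval -0.38 to 0.29). The other read 7.90 and 8.42 with GW2580, 7.94 and 7.28 with vehicle at 2 weeks, and 8.56 and 8.47 at 1 week, a vehicle difference of -0.90 (SE 0.24, limma adjusted p 0.104 over all probe sets). Its lowest value was on the array with the uneven beta-actin signal, and without that array the difference was -0.57. Whether RNA quality on that array set the low value was not tested.

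Mga read 7.21 and 7.01 with GW2580, 7.38 and 7.51 with vehicle at 2 weeks, and 7.08 and 7.36 at 1 week. Both GW2580 arrays lay below both 2-week vehicle arrays, with a difference of -0.34 (SE 0.15, 95% interval -0.68 to 0.01, limma adjusted p 0.288). The vehicle groups differed by 0.23 (SE 0.15). Of its 5 probe sets 3 lay below the floor, and the second above it differed by 0.17 and -0.13 in these comparisons, against the leading one in both.

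**Figure D2:**
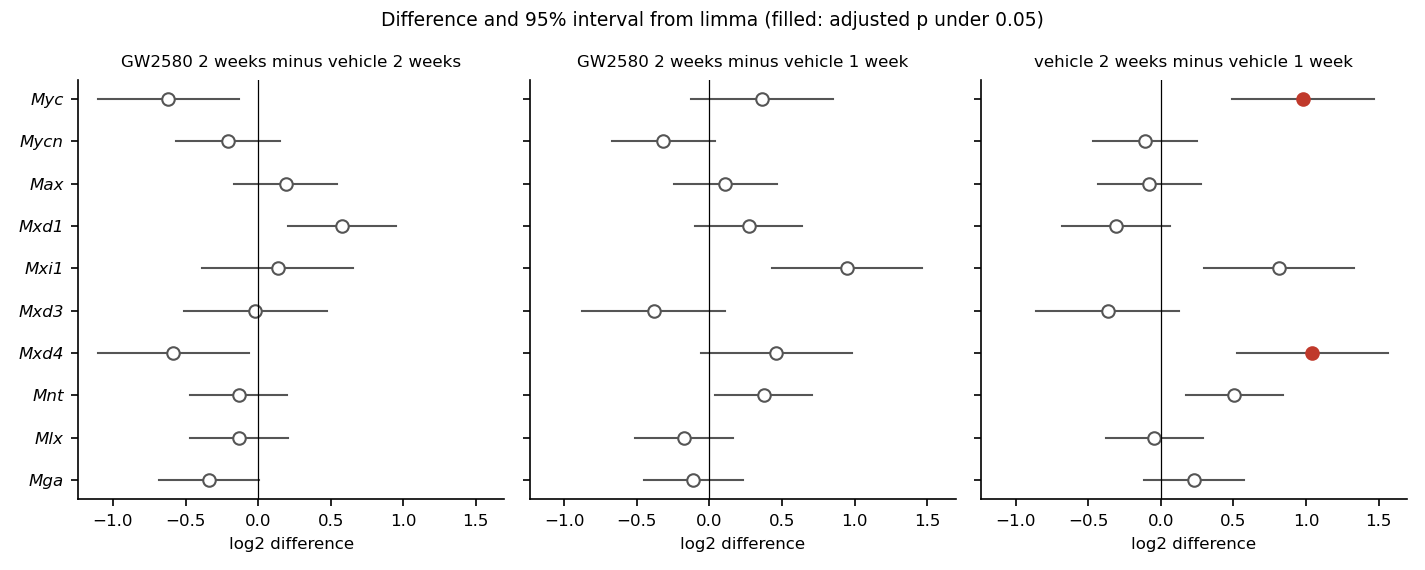
Log2 difference (x axis) of the leading probe set of each network gene, with its 95% interval from limma, for GW2580 against vehicle at 2 weeks, GW2580 at 2 weeks against vehicle at 1 week, and vehicle at 2 weeks against 1 week; filled points passed an adjusted p of 0.05. The filled points are Myc at 0.98 and Mxd4 at 1.04 in the right panel, and no point is filled in the left and middle panels.

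No member passed between GW2580 and vehicle at 2 weeks, where limma called 0.367% of all genes. At an unadjusted p under 0.05 there were 3 of 10 members, against 18% of all genes: Mxd1 was higher with GW2580 and Myc and Mxd4 were lower. For 5 members these groups did not overlap, against 49.8% of all genes, which is the background level. Myc differed by -0.62 (SE 0.21, 95% interval -1.11 to -0.13, limma adjusted p 0.193) and Mxd4 by -0.58 (SE 0.23, 95% interval -1.10 to -0.06, limma adjusted p 0.231). The Mxd4 difference was -0.33 without 2-week vehicle array 1, -0.84 without array 2 of that group, and -0.19 as the mean of its probe sets. Its other probe sets differed by -0.52, 0.014 and 0.34. On the last of these both GW2580 arrays lay above both 2-week vehicle arrays, against the leading one (limma adjusted p 0.264 over all probe sets). Mxi1 differed by 0.14 (95% interval -0.38 to 0.65) and Mnt by -0.13 (95% interval -0.47 to 0.20). The median of the 10 members was -0.13, beside -0.05 over all genes tested, and it was -0.027 without GW2580 array 1 and -0.21 without GW2580 array 2.

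Set beside each other, the vehicle and inhibitor comparisons of Myc were 0.98 and -0.62, of Mxd4 1.04 and -0.58, and of Mxd1 -0.31 and 0.58. Both comparisons use the same 2-week vehicle arrays, which tends to give their differences opposite signs. Against the 1-week arrays, which the inhibitor comparison does not use, GW2580 gave 0.36 for Myc (95% interval -0.13 to 0.85), 0.46 for Mxd4 (95% interval -0.06 to 0.98) and 0.27 for Mxd1 (95% interval -0.10 to 0.64). Without 1-week array 1 these were 0.081 for Myc and 0.18 for Mxd4, and without 1-week array 2 they were 0.64 and 0.74. Without GW2580 array 2 Myc was 0.18, and without GW2580 array 1 Myc was 0.55 and Mxd1 0.12; Mxd1 was 0.41 without GW2580 array 2. No member passed in this comparison, where limma called 0.512% of all genes, and 2 of 10 (Mxi1 and Mnt) had an unadjusted p under 0.05, against 17% of all genes. The groups did not overlap for 7 members, against 46.7% of all genes.

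**Figure D3:**
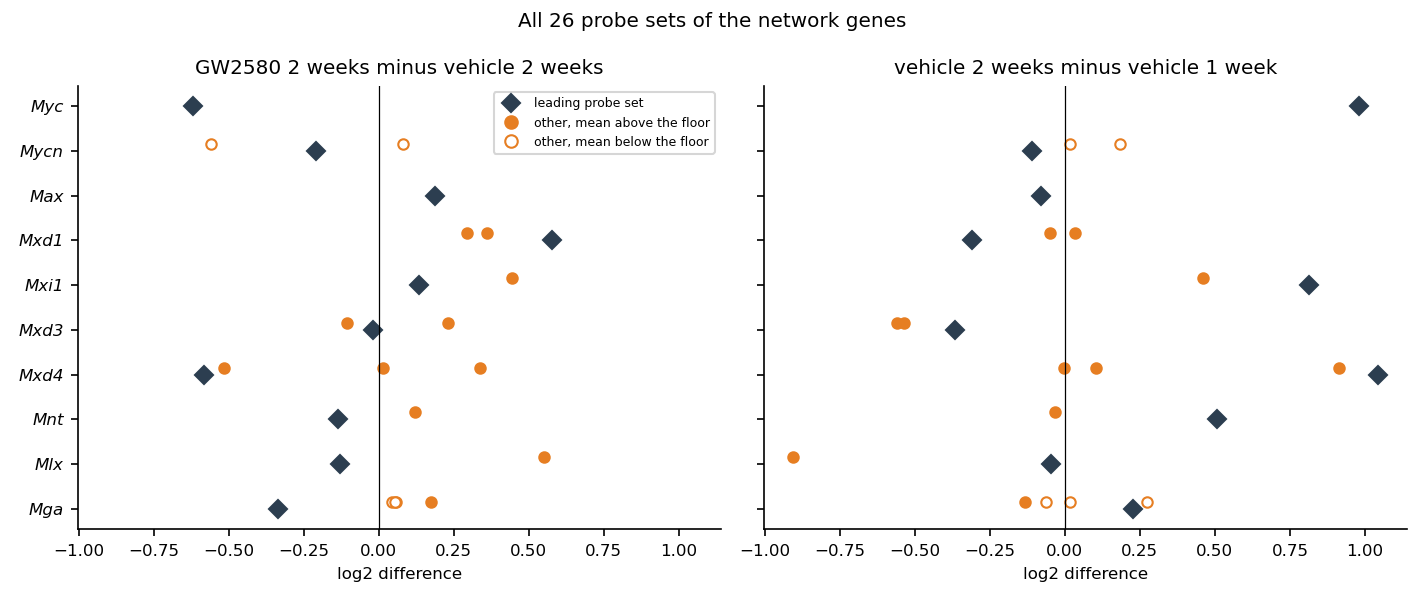
Log2 difference (x axis) of all 26 probe sets of the network genes for GW2580 against vehicle at 2 weeks (left) and vehicle at 2 weeks against 1 week (right); diamonds are leading probe sets, filled circles other probe sets with a mean above the floor of 4.97, open circles those below it. The 4 probe sets of Mxd4 run from -0.0028 to 1.04 in the right panel, and those of Mlx lie at -0.90 and -0.04.

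By the same test the wider pathway was read from gene lists, whose choice was made with results of these data known. Of further network factors, Mlxip, the Mondo partner of Mlx, read 7.76 and 7.88 with GW2580, 7.76 and 7.97 with vehicle at 2 weeks, and 7.60 and 7.80 at 1 week, with the vehicle groups overlapping. Its vehicle difference was 0.17 (SE 0.14). Mycl and Mlxipl, the third Myc factor and the second Mondo factor, lay below the floor.

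Of 4 genes that Mlx is known to drive together with Mondo factors, 2 rose between 1 and 2 weeks in vehicle, against 3.74% of all genes. The other 2 did not pass. Of the 4, 3 were above 0 and 1 below, with a median of 0.94 beside 0.02 over all genes. Txnip, which encodes a brake on glucose uptake, read 11.58 and 11.34 at 2 weeks, against 9.75 and 10.31 at 1 week, a rise of 1.43 (SE 0.29, limma adjusted p 0.0349) that its second probe set read as 1.01. Arrdc4, for an arrestin of the same family, read 9.93 and 8.94 at 2 weeks, against 7.97 and 8.10 at 1 week, a rise of 1.40 (SE 0.29, limma adjusted p 0.0349), with 0.36 on its second probe set. With GW2580 Arrdc4 read 7.97 and 8.32, below both 2-week vehicle arrays, a difference of -1.29 (limma adjusted p 0.0919), while Txnip at 10.72 and 11.61 differed by -0.30. Klf10 differed by 0.47 in vehicle and -0.38 with the inhibitor. Of the list, 0 genes passed the vehicle comparison without either 1-week array or without 2-week vehicle array 1, and 1 passed without 2-week vehicle array 2. Against 1 week, GW2580 gave no call, with Txnip at 1.13 and Pklr, for a pyruvate kinase, at 0.18.

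Genes that Myc is known to raise did not follow Myc between the vehicle groups. Of 38 tested none passed, 20 were above 0 (52.9% of all genes were) and 18 below, and the median was 0.01, beside 0.02 over all genes. Those with the smallest p were Odc1, the first enzyme of polyamine synthesis, at -0.64 (limma adjusted p 0.0535, with -0.53 and -1.21 on its other probe sets, the larger of which passed over all probe sets at an adjusted p of 0.0275), and Pes1, for a nucleolar protein, at 0.60 (limma adjusted p 0.0761, with -0.60 on its other probe set). With GW2580 against vehicle at 2 weeks none passed, 32 of 38 were below 0, and the median was -0.21, beside -0.05 over all genes, of which 41.7% were above 0. The nucleolar gene Gnl3 read 10.75 and 10.68 with GW2580, against 11.29 and 11.37 with vehicle, a difference of -0.61 (limma adjusted p 0.0806). Ppat, the first enzyme of purine synthesis, differed by -0.56 (limma adjusted p 0.0836) and by 0.16 on its second probe set. The list median was -0.09 without GW2580 array 1 and -0.12 without 2-week vehicle array 2. Against 1 week, 32 of 38 were also below 0 with GW2580 (45.8% of all genes were above 0), none passed, and Ppat and Odc1 differed by -0.52 and -0.65.

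Genes that Myc is known to lower gave 1 rise of 8 in vehicle between 1 and 2 weeks, against 3.74% of all genes, with a median of 0.23. That was Ndrg1, a stress- and hypoxia-induced gene, at 12.00 and 12.63 at 2 weeks, against 10.54 and 11.11 at 1 week, a rise of 1.49 (limma adjusted p 0.0309) read by all 5 of its probe sets at 0.91 to 1.63. It did not pass without 1-week array 1 or without either 2-week vehicle array. Between GW2580 and vehicle at 2 weeks none passed, and the smallest p were those of Gadd45b, at 0.54, and Thbs1, at 0.88 (limma adjusted p 0.0919 and 0.192). Between GW2580 and 1 week the growth arrest gene Gadd45b rose by 0.91 (SE 0.12, limma adjusted p 0.0312), with 0.66 and 0.13 on its other probe sets. No gene of the list passed that comparison without either 1-week array, without either 2-week vehicle array or without GW2580 array 2, and 2 passed without GW2580 array 1. All 3 comparisons thus called at most 1 gene of this list.

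S-phase genes were listed because Mxd3 is made in that phase. Of 23 tested, 8 fell between 1 and 2 weeks in vehicle, against 2.71% of all genes, and 15 did not pass. All 23 were below 0, and the median was -0.54, beside 0.02 over all genes. Cdc6, Ccna2, Rrm2 and Cdc45, which load and fire origins, drive the cycle and supply nucleotides, fell by 1.42, 1.20, 0.79 and 0.77 (limma adjusted p 0.0102 to 0.0367). Without 1-week array 1, 0 passed, and without any other vehicle array there were 2, with all 23 below 0 each time. Against vehicle at 2 weeks, GW2580 gave 0 calls and a median of -0.01, with Cdc6 at 0.49 and Cdt1 at -0.32. Against 1 week, GW2580 gave 0 calls, 23 of 23 below 0 and a median of -0.58, with Rrm1 at -0.77 and Cdc6 at -0.93.

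Enzymes that control Myc protein turnover gave 4 falls of 18 in vehicle between 1 and 2 weeks, against 2.71% of all genes, and 14 did not pass. Of the 18, 7 were above 0 and 11 below, with a median of -0.09, beside 0.02 over all genes. The 4 were the mitotic kinases Aurka (-1.32) and Plk1 (-1.10), which stabilise Myc proteins, the ubiquitin ligase subunit Skp2 (-0.78, and -0.09 to -0.84 on its 5 other probe sets) and Cip2a (-0.68), which shields Myc from a phosphatase (limma adjusted p 0.0102 to 0.0416). These 4 genes are also made mainly in dividing cells. Without 1-week array 1, 0 passed, without 1-week array 2 or 2-week vehicle array 1 there were 2, and without 2-week vehicle array 2 there was 1. Between GW2580 and vehicle at 2 weeks none passed, with Plk1 at 0.47 and Axin1 at -0.44, and none between GW2580 and 1 week, with Aurka at -0.82 and Skp2 at -0.81. The ubiquitin ligase Fbxw7, which marks Myc for destruction, passed in no comparison.

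Cofactors of the network gave no call among 22 genes in any comparison, with medians of 0.01 (vehicle, 2 weeks against 1), -0.08 (GW2580 against vehicle at 2 weeks) and -0.02 (GW2580 against 1 week). In vehicle the smallest p were those of Zbtb17, for the Myc partner Miz1, at 0.38, and of the corepressor gene Sin3b at 0.40, whose 5 probe sets ran from -0.84 to 0.41. With GW2580 at 2 weeks they were those of Wdr5, at -0.45, and Actl6a, at -0.40. Among partners of Mga, L3mbtl2 and E2f6 differed by -0.44 and -0.38 between GW2580 and 1 week.

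**Figure D4:**
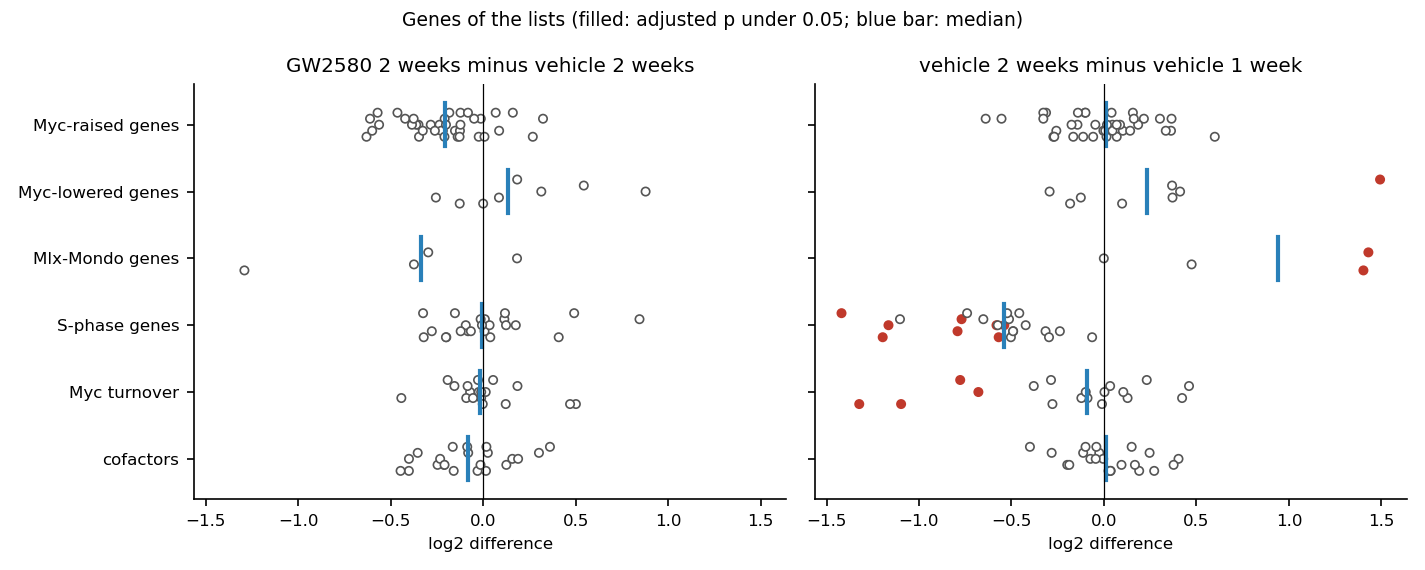
Log2 difference (x axis) of each tested gene of 6 lists around the network, for GW2580 against vehicle at 2 weeks (left) and vehicle at 2 weeks against 1 week (right); filled points passed an adjusted p of 0.05 in limma and blue bars are list medians. Filled points are in the right panel only: 8 S-phase genes and 4 turnover genes on the low side, and Txnip, Arrdc4 and Ndrg1 on the high side.

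The genes most like the called members were taken by Pearson's r over the 6 arrays, which form 3 groups, as a description. For Myc they were the unnamed transcript D130037M23Rik (r = 0.9989), the small nucleolar RNA host gene Snhg8 (r = 0.9978) and Phykpl (r = 0.9951), an enzyme of lysine breakdown. In the vehicle comparison these rose by 0.78, 0.85 and 0.84 (limma adjusted p 0.0443, 0.0405 and 0.0418), and with GW2580 at 2 weeks they differed by -0.50, -0.54 and -0.51. For Mxd4 the most alike genes were Ocrl (r = 0.9993), Fam76b (r = 0.9952) and the BMP receptor gene Bmpr2 (r = 0.9933). These differed by 0.37, 0.72 and 0.54 in vehicle and did not pass.

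**Figure D5:**
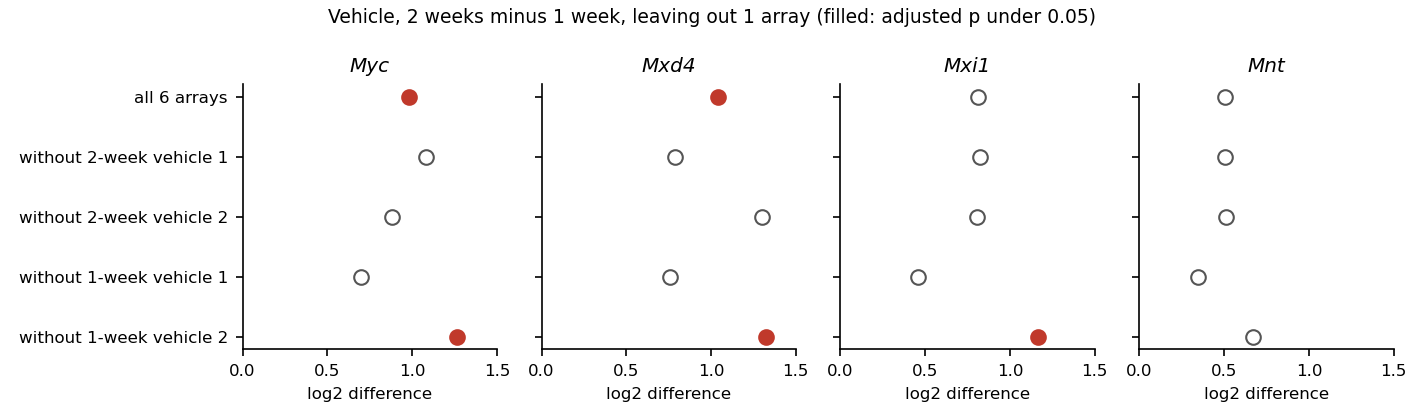
Log2 difference between vehicle at 2 weeks and at 1 week (x axis, from 0) for Myc, Mxd4, Mxi1 and Mnt with all 6 arrays and without each vehicle array; filled points passed an adjusted p of 0.05 in limma. Points run from 0.34 for Mnt to 1.33 for Mxd4. All lie above 0, which was fixed in advance because the vehicle groups of these genes did not overlap. Without 1-week array 1 or either 2-week array none is filled.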

How the data were processed

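The deposited values are log2 expression values per probe set, made by the authors with RMA per the submitters' processing notes; no source used here gives its version, the probe set definitions or scan batches. RMA equalises the arrays' distributions, which hides any change common to most genes. Arrays give no depth; their number limits the precision.

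Of 45101 probe sets, 64 controls were left out. Gene names came from the platform annotation (34945 probe sets with 1 symbol, 932 with several, 9160 with none); 34741 matched RefSeq (GRCm38.p6) by gene identifier, with 0 symbols changed. Each gene was tested on its brightest probe set if that had a mean of at least 4.97 (13090 genes). The test was limma 3.58.1 (R 4.3.3): a mean per group over all 6 arrays, lmFit, eBayes without trend (3 residual and 4.97 prior degrees of freedom), Benjamini-Hochberg over all genes, called under 0.05. Statistics of other probe sets come from the same fit on all 45037. An exact permutation test of 2 against 2 cannot go below a two-sided p of 0.333, so none was used. Intervals are 95%. The fit was tested on simulated data with independent arrays and normal noise of its own fitted spread. Such data hold no odd arrays and no mix of cell types.

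Members and lists were chosen with earlier results of these data known. Text names all members, and of each list up to 4 called genes per comparison, else the 2 with the smallest p (marker lists are given as sums), plus 3 genes by likeness per called member. Fbxw7, Mycl and Mlxipl were named after their values were seen. Same-numbered arrays did not deviate together in every comparison (r = 0.0022, 0.0094 and 0.29), so replicate numbers were not taken as pairs. Alternatives were the filter, the moderation, the arrays fitted, the scaling, the choice of probe set, the features, each array left out and the replicate block; leaving arrays out of the lists was added after seeing the data.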

Additional observations from a re-analysis of the deposited data

How the results depend on the processing

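For the members called between 1 and 2 weeks in vehicle (2 with all arrays), the count was 1 with the mean of all probe sets of a gene, 0 with all non-control probe sets tested, and 0 to 3 with 1 array left out; it stayed 2 without the filter, with trend and robust moderation, with the 4 arrays compared and at a common 75th percentile. With the replicate number as a block 3 members passed (Mxi1 as well, adjusted p 0.0332 in limma) and 1223 genes, against 844. Of all genes, 0 to 1059 passed with 1 array left out. For GW2580 against vehicle at 2 weeks no member passed under any alternative; 48 genes passed, against 74 without the filter, 131 with trend and robust moderation, 193 with all probe sets, 154 with the replicate block, 0 with only the 4 arrays compared (2120 at an unadjusted p under 0.05), and 0 to 167 with 1 array left out. For GW2580 against 1 week no member passed either; 67 genes passed, against 139 with trend and robust moderation, 24 with 4 arrays, 36 with all probe sets, 182 with the replicate block and 0 to 169 with 1 array left out. With the mean of all probe sets, differences that changed sign were Mycn (0.031, vehicle), Mxd3 (0.035) and Mlx (0.21, both GW2580 against vehicle) and Mga (0.063, GW2580 against 1 week); at a common 75th percentile Mxd3 was 0.0075. With 1 array left out, the vehicle differences of Max ran from -0.18 to 0.021 and of Mlx from -0.17 to 0.079. Those against vehicle at 2 weeks ran from -0.053 to 0.016 for Mxd3 and from -0.011 to 0.28 for Mxi1, and those against 1 week from -0.25 to 0.033 for Mga and from -0.039 to 0.26 for Max. None of these was called in any fit, and the cause was not tested. The lone array of a group is assumed to vary like the others.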
